A study of Mus musculus with 12 samples.

Results

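The genes of cholesterol synthesis and of its control by SREBP were followed in whole mouse embryos that carried both, 1 or no working copy of Mfsd12. Members were the rows of the deposited count table named by a list of 27 symbols, and all 27 were in the table, among 41079 genes, and all 27 passed the filter on low counts, among 20771 genes. They are 19 enzymes of the pathway (8 from acetyl-CoA through mevalonate to the isoprenoid diphosphates, and 11 from squalene to cholesterol), 5 genes of the SREBP switch (Srebf1, Srebf2, Scap, Insig1, Insig2) and 3 genes of sterol carriage and lipid supply (Stard4, Lpin1, Acly). The embryos came from timed matings of mice heterozygous for Mfsd12, a gene for a lysosomal and melanosomal membrane protein needed for cysteine import, and were taken between 10.0 and 11.0 days after fertilization. There were 4 knockout, 4 heterozygous and 4 wild-type embryos, each a separate animal with 1 library made from 325 ng of RNA. The labels name no other allele or treatment, and they give neither strain nor stage for a single embryo, although staging by the program eMOSS is mentioned. Embryos are numbered here within a genotype in deposition order.

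Cells make cholesterol from acetyl-CoA. HMG-CoA is built first, then turned into mevalonate, into isoprenoid diphosphates, into squalene and, after ring closure, into cholesterol by a chain of demethylations, isomerizations and reductions. The transcription factors SREBP1 and SREBP2 (genes Srebf1 and Srebf2) sit in the endoplasmic reticulum bound to the escort Scap. When sterols are plentiful, the Insig proteins hold Scap there, and when sterols fall, Scap carries SREBP to the Golgi, where proteases free the active factor, which raises most genes of the pathway together, Insig1 among them. Mouse embryos at midgestation make much of their own cholesterol, and loss of several of these enzymes disturbs development.

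Before the members, the libraries: totals lay between 53133084 and 67977990 counted reads. Mfsd12 stood at 2.97 ± 0.544 CPM (a read count scaled by the TMM-adjusted library total; SD, n = 4) in knockout, 5.84 ± 2.56 CPM in heterozygous and 11.9 ± 3.23 CPM in wild-type embryos. Heterozygous 2 went against its label, at 2.58 CPM and so within the range of the knockout embryos, and its values below are those of the library labelled so. Knockout 3 had the highest summed CPM of 10 yolk sac endoderm markers (1454 CPM, against at most 185 CPM elsewhere), and heterozygous 2 the highest of 15 HIF targets, led by Ldha and Tpi1 (13673 CPM, against at most 5909 CPM elsewhere). The male gene Ddx3y exceeded 1 CPM in 3 of 4 knockout, 0 of 4 heterozygous and 3 of 4 wild-type embryos. The first number in each embryo's title, called its title number here, is 4, 14, 15, 18 or 4.1b; its meaning is not given in the labels. Number 18 covers knockout 3, heterozygous 1 and wild-type 1 and 2. Number 4 covers knockout 2, heterozygous 4 and wild-type 3 and 4, and number 14 covers knockout 1 and heterozygous 2. Knockout 4 alone has number 15, and heterozygous 3 alone 4.1b. The tissue is a whole embryo, so fewer cells that use a gene and less RNA per cell cannot be told apart in any value below.

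Levels between genes were compared per kilobase of exon, as CPM divided by the exon length in kilobases. On that scale the pathway was most abundant at its entrance. Acat2, which joins acetyl-CoA units, had 131 ± 21.9 (SD, n = 12 embryos), and Hmgcs1, the HMG-CoA synthase, had 119 ± 24.7. Fdps, which makes farnesyl diphosphate, followed with 91.1 ± 18.8, and Acly, which supplies cytosolic acetyl-CoA, with 72.2 ± 10.1. The spreads of Acat2 and Hmgcs1 overlap, and so do those of Hmgcs1 and Fdps. Sqle, Msmo1 and Cyp51, which oxidize squalene and remove methyl groups from the sterol nucleus, lay close together at 52.5 ± 5.12, 50.1 ± 9.24 and 46.03 ± 7.58, with overlapping spreads. The lowest enzymes were Ggps1 (7.85 ± 0.778), the geranylgeranyl diphosphate synthase, and Hsd17b7 (6.07 ± 1.73), a ketoreductase of sterol demethylation. Of the switch, Srebf2 had 40.6 ± 6.38 and Srebf1 11.1 ± 2.29, and their ranges over the 12 embryos did not overlap. Insig1 had 36.5 ± 8.36, above Insig2 with 3.05 ± 0.439, again without overlap. Lpin1, a phosphatidate phosphatase, was the lowest member with 1.49 ± 0.529. From the highest to the lowest embryo, Mvk varied 3.04-fold, Lpin1 2.99-fold and Fdps 2.57-fold, whereas Scap varied 1.37-fold and Sqle 1.41-fold.

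**Figure D1:**
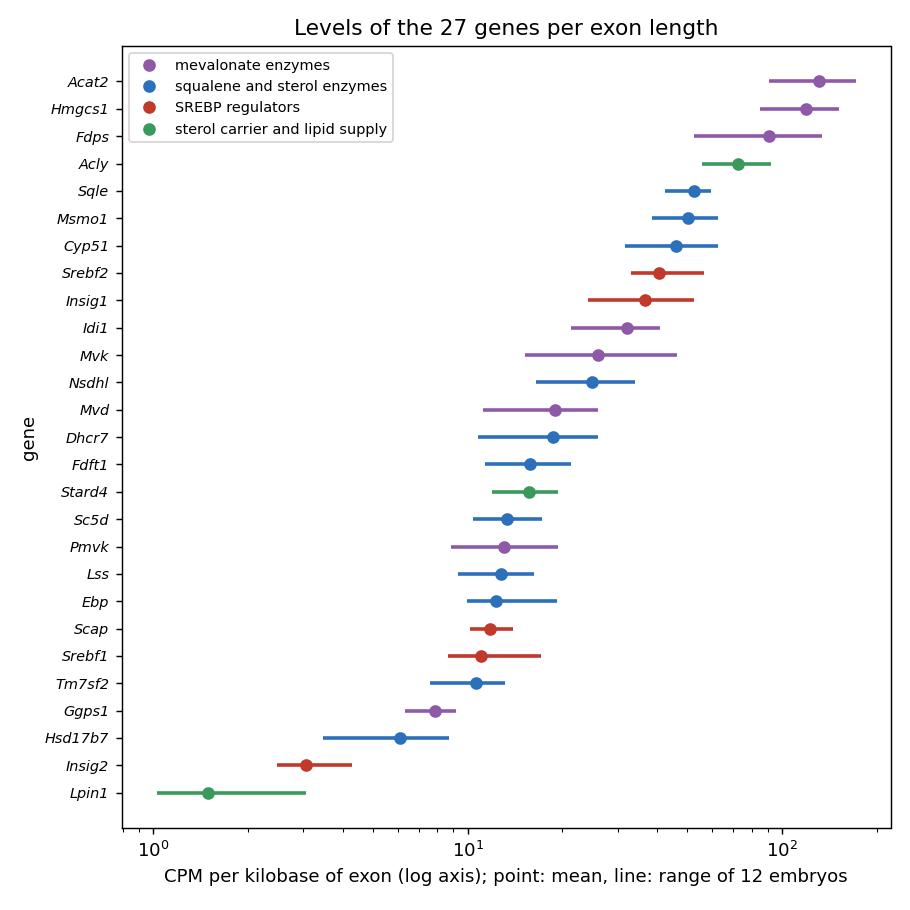
Mean (point) and range (line) over 12 embryos of each gene's level as CPM per kilobase of exon, on a log axis, coloured by role. Acat2 and Hmgcs1 lead at 131 and 119, and Lpin1 is lowest at 1.49.

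Knockout and wild-type embryos were compared first. None of the 27 genes passed the adjusted threshold of 0.05 in edgeR's quasi-likelihood test (0 of 20771 genes passed, background 0%), and the smallest adjusted p of a member was 0.547, that of Tm7sf2. The estimates were mostly negative: 17 of 19 enzymes and 21 of 27 members had a lower estimate in knockout embryos, where 48.7% of all genes tested did. The median log2 fold change was -0.19 over the enzymes, -0.35 over the 8 mevalonate enzymes and -0.18 over the 11 squalene and sterol enzymes, against 0.011 over all genes. Without adjustment, 5 enzymes reached p under 0.05, all lower (Mvk, Pmvk, Fdps, Tm7sf2 and Nsdhl), and 0 were higher. Of all genes, 8.33% had such a p, 4.08% lower and 4.25% higher. The count turned on single embryos: without knockout 1, 0 members reached p under 0.05 and the enzyme median was -0.13. With the title number as a block, or with a stage index from marker genes as a covariate, the count was also 0, and it was 1 without wild-type 1 and 1 without wild-type 2. Leaving out both libraries that stood apart, heterozygous 2 and knockout 3, gave 7. In the block fit, knockout 4 is alone in number 15, and number 14 has no wild-type embryo. Knockout and wild-type embryos meet there only in numbers 4 and 18, with 1 knockout embryo in each. Limma voom with sample weights gave 15 members, all lower, and an enzyme median of -0.38. The share of all genes with such a p was not computed for these alternative fits. Their member counts therefore have no background, and the 8.33% above is that of edgeR with all 12 embryos. After adjustment DESeq2 called 127 genes and voom 0, with 0 members in either.

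**Figure D2:**
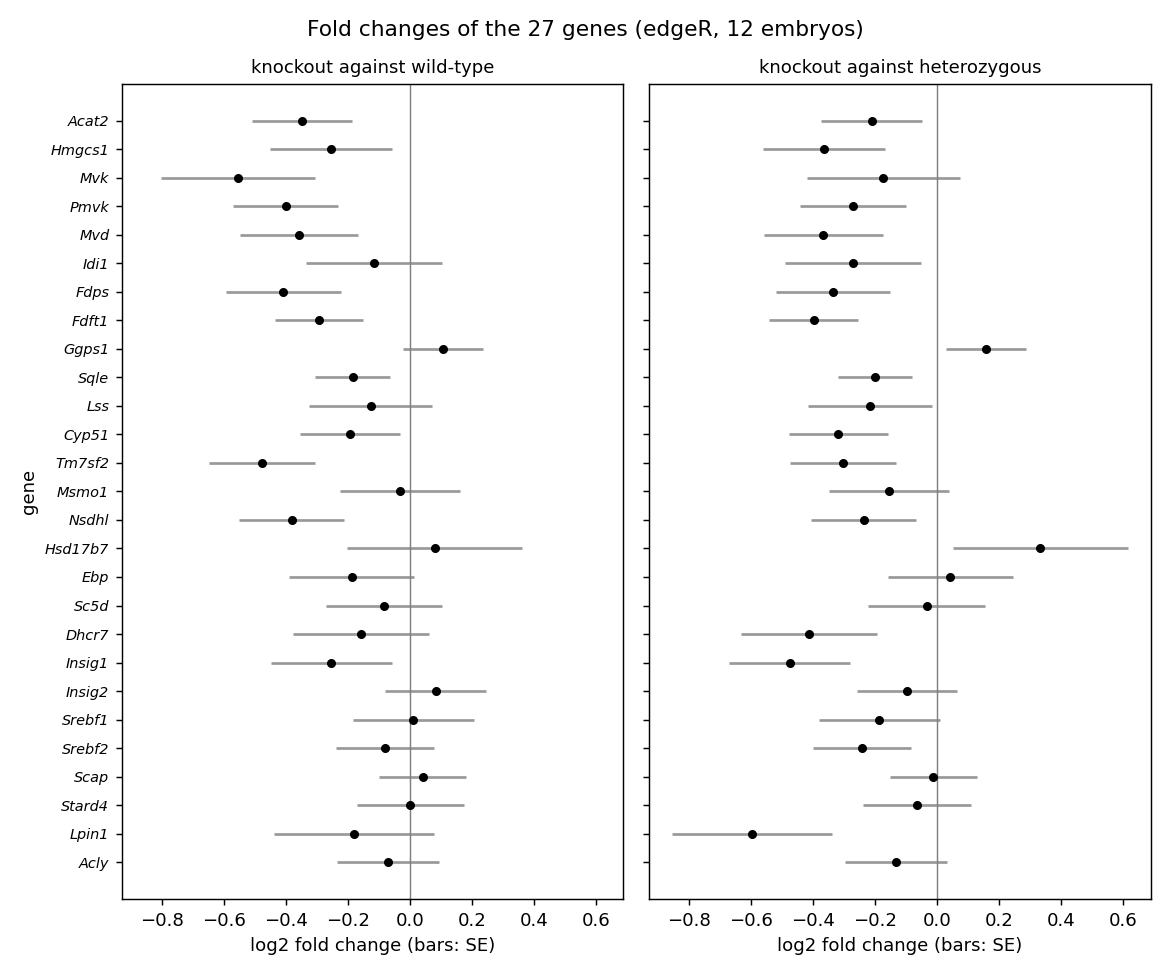
Log2 fold change (point) and its standard error (bar) of the 27 genes in knockout against wild-type and against heterozygous embryos, from edgeR. Most points lie left of 0 in both panels, which share the knockout embryos, with Mvk at -0.55 lowest against wild-type and Lpin1 at -0.60 lowest against heterozygous.

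Of the 8 enzymes of the mevalonate stretch, 7 had estimates below 0. Mvk, the mevalonate kinase (chr5:114582324-114598652, plus strand of GRCm39, as all gene positions here), stood at 29.8, 45.2, 42.2 and 36.6 CPM in knockout 1 to 4, 55.1, 27.1, 46.9 and 44.2 CPM in heterozygous 1 to 4 and 82.2, 56.6, 40.2 and 46.97 CPM in wild-type 1 to 4. Wild-type 1 was far above all other embryos, heterozygous 2 was lowest, and the knockout and wild-type ranges overlapped; the log2 fold change was -0.55 ± 0.25 SE, edgeR adjusted p = 0.598, and -0.32 without wild-type 1. Pmvk, which adds the second phosphate (chr3:89361848-89376321, plus strand), stood at 30.2, 40.9, 43.4 and 36.4 CPM in knockout 1 to 4, 43.9, 44.2, 46.2 and 47.7 CPM in heterozygous 1 to 4 and 65.9, 51.4, 41.7 and 40.2 CPM in wild-type 1 to 4. Knockout 1 was the lowest and wild-type 1 the highest embryo, and the log2 fold change was -0.40 ± 0.17 SE, edgeR adjusted p = 0.596. Fdps (chr3:89000895-89009274, minus strand) stood at 76.4, 123, 122 and 123 CPM in knockout 1 to 4, 128, 148, 148 and 137 CPM in heterozygous 1 to 4 and 196, 143, 118 and 133 CPM in wild-type 1 to 4. Of its knockout values, 3 lie within 1 CPM of each other and knockout 1 is apart, while wild-type 1 is the highest embryo; the log2 fold change was -0.41 ± 0.19 SE, edgeR adjusted p = 0.598. Mvd, the decarboxylase between them, averaged 29.8 ± 6.27 CPM without Mfsd12 and 38.1 ± 8.73 CPM with both copies (log2 fold change -0.36 ± 0.19 SE, edgeR adjusted p = 0.627). Of the exon bases of Mvd, 28.6% are shared with an opposite-strand gene, Gm53466, and the counts ignore strand. Acat2 had 238 ± 36.98 CPM and 303 ± 38.6 CPM (-0.35 ± 0.16 SE, edgeR adjusted p = 0.6); its near-identical neighbour Acat3 had a mean of 85.2 CPM over the 12 embryos, and reads that fit both genes were split. Hmgcs1 and Idi1, the isopentenyl diphosphate isomerase, had -0.25 ± 0.20 SE and -0.11 ± 0.22 SE. Ggps1, on a branch toward protein prenylation, had a positive estimate of 0.11 ± 0.13 SE.

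Among the squalene and sterol enzymes, 3 had knockout values wholly below the wild-type values (Fdft1, Tm7sf2 and Nsdhl), where 1.82% of all genes did, and 0 members lay wholly above, where 1.6% did. Tm7sf2, a sterol reductase (chr19:6112851-6117880, minus strand), stood at 11.2, 12.5, 14.9 and 13.5 CPM in knockout 1 to 4, 18.8, 12.1, 16.8 and 16.6 CPM in heterozygous 1 to 4 and 19.3, 19.5, 15.1 and 18.7 CPM in wild-type 1 to 4. Every knockout embryo was below every wild-type embryo, though by as little as 14.9 against 15.1 CPM, and heterozygous 2 lay among the knockout embryos; the log2 fold change was -0.48 ± 0.17 SE, edgeR adjusted p = 0.547. Nsdhl, a dehydrogenase of sterol demethylation on the X chromosome (chrX:71962127-72002134, plus strand), stood at 36.4, 44.8, 53.6 and 55.5 CPM in knockout 1 to 4, 54.01, 46.2, 57.1 and 66.9 CPM in heterozygous 1 to 4 and 75.5, 58.2, 55.6 and 58.5 CPM in wild-type 1 to 4. The gap between the groups was as narrow, 55.5 against 55.6 CPM, and wild-type 1 stood well above the rest (-0.38 ± 0.17 SE, edgeR adjusted p = 0.598). Fdft1, the squalene synthase (chr14:63382599-63419136, minus strand), stood at 119, 129, 160.0 and 149.8 CPM in knockout 1 to 4, 156, 222, 173 and 183 CPM in heterozygous 1 to 4 and 188, 162, 162 and 171 CPM in wild-type 1 to 4. Its knockout values lay below the wild-type values by 160.03 against 161.74 CPM, and heterozygous 2 was the highest embryo (-0.29 ± 0.14 SE, edgeR adjusted p = 0.613). Of its exon bases, 7.43% are shared with Ctsb on the opposite strand, which averaged 198 ± 104 CPM without Mfsd12 and 228 ± 75.4 CPM with both copies (SD, n = 4). The other sterol enzymes had log2 fold changes from -0.19 (Cyp51, the lanosterol demethylase, and Ebp, the sterol isomerase) to 0.08 (Hsd17b7). Sqle had -0.18 ± 0.12 SE, Lss, the cyclase that closes the ring, -0.13 ± 0.20 SE, and Dhcr7, which makes cholesterol from 7-dehydrocholesterol, -0.16 ± 0.22 SE. Msmo1 and Sc5d, a methyl oxidase and the C5 desaturase, had -0.03 ± 0.19 SE and -0.08 ± 0.19 SE.

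**Figure D3:**
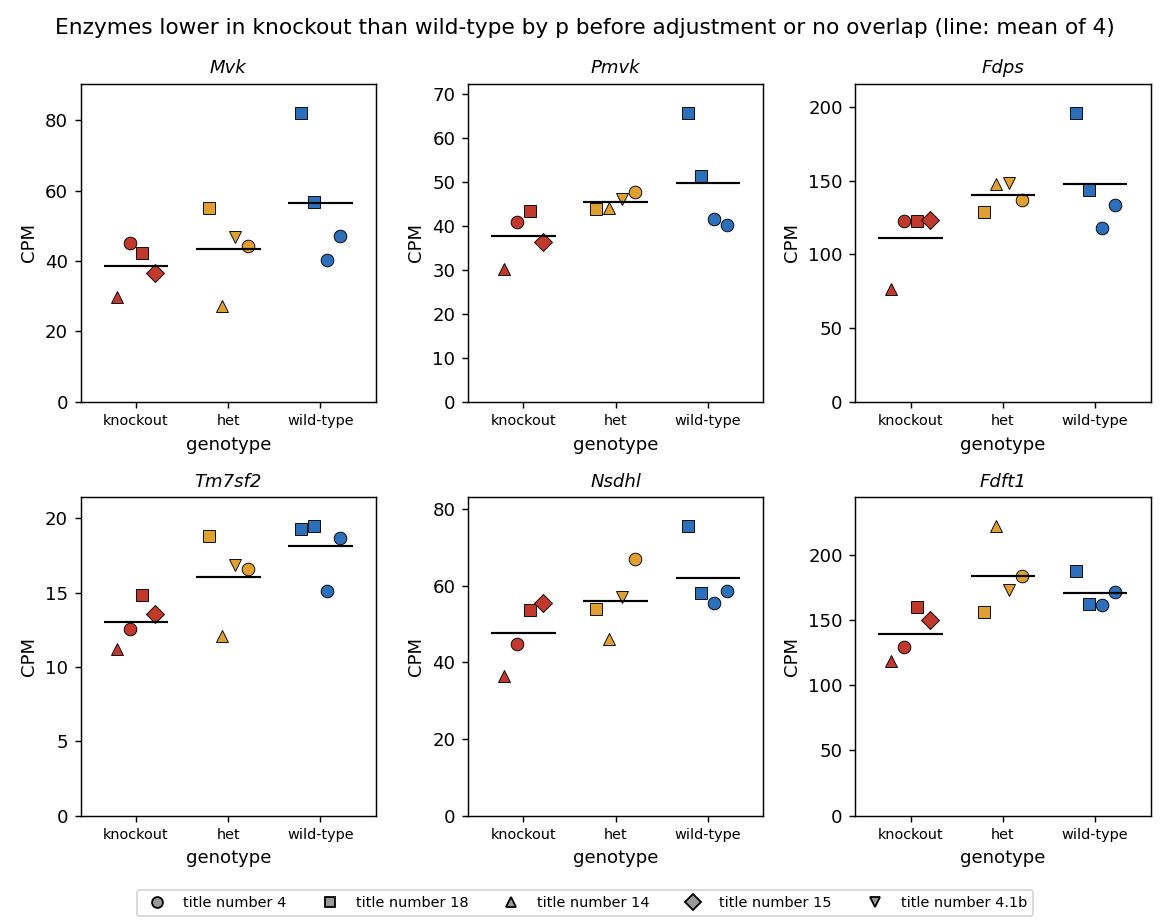
CPM of the 5 enzymes with p under 0.05 before adjustment (Mvk, Pmvk, Fdps, Tm7sf2, Nsdhl) and of Fdft1, whose groups do not overlap, in each embryo by genotype (het is heterozygous), with symbols for the title number and lines at the mean of 4 embryos. Knockout 1 (red triangle) is lowest for 5 of these genes, and wild-type 1, a blue square, highest for 4.

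The switch and the supply genes had estimates nearer 0, apart from Insig1 and Lpin1. Srebf2 averaged 208 ± 26.4 CPM without Mfsd12 and 220.4 ± 24.2 CPM with both copies (-0.08 ± 0.16 SE), Srebf1 had 51.96 ± 8.05 CPM and 51.5 ± 8.03 CPM (0.01 ± 0.20 SE), and Scap had 55.6 ± 7.63 CPM and 54.03 ± 5.31 CPM (0.04 ± 0.14 SE). Insig1 had a lower estimate, -0.25 ± 0.19 SE, edgeR adjusted p = 0.718, and Insig2 a higher one, 0.08 ± 0.16 SE. Stard4, a sterol transfer protein, and Acly had 0.00 ± 0.17 SE and -0.07 ± 0.16 SE.

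A few embryos set the extremes of many members at once. Knockout 1 was the lowest of the 12 embryos for 18 of 27 members, 13 of 19 enzymes among them, and the highest for Ggps1. Heterozygous 2 was the highest for 9 (Fdft1, Lss, Cyp51, Dhcr7, Insig1, Insig2, Srebf1, Srebf2 and Lpin1) and the lowest for 3 (Mvk, Ggps1 and Ebp). Both carry title number 14, and 14 of 19 enzymes were lower in knockout 1 than in heterozygous 2. Wild-type 1 was the highest for 8, of which 5 are mevalonate enzymes (Acat2, Mvk, Pmvk, Mvd and Fdps). How often these embryos were lowest or highest over all genes was not counted. These counts therefore have no background and do not single out the members. Other genes moved with these embryos. The summed CPM of 15 ATF4 targets, led by Psat1 and Phgdh of serine synthesis, was 3677 CPM in knockout 1 and 3583 CPM in heterozygous 2, against 709 to 2332 CPM in the other embryos. The sum of 12 erythroid markers, led by Hbb-y and Hba-x, was lowest in knockout 1 (4778 CPM) and highest in wild-type 1 (74143 CPM). It ran over 4778 to 16972 CPM in knockout, 11641 to 46542 CPM in heterozygous and 16029 to 74143 CPM in wild-type embryos. Neuronal markers, led by Tubb3 and Crmp1, summed to 178 to 780.5 CPM in knockout and 707 to 1149 CPM in wild-type embryos, and macrophage markers, led by Pf4 and F13a1, to 10.3 to 106 CPM and 65.7 to 185 CPM. Genes that are higher earlier in development, led by Lin28a and Lin28b, summed to 127 to 759 CPM and 63.3 to 235 CPM, and genes higher later, led by Hba-a1 and Tubb3, to 781 to 1753 CPM and 1849 to 11065 CPM. Hepatoblast markers, led by Afp and Trf, and yolk sac endoderm markers, led by Apob and Ttr, were highest in knockout 3, with 4922 and 1454 CPM, and next highest in heterozygous 1, with 823 and 185 CPM. The part of any of these in the sterol gene differences was not tested. The stage index used as a covariate above comes from marker genes of the same libraries. It was -0.92, -1.57, 0.48 and -3.38 in knockout 1 to 4 and 1.01, 2.11, 0.37 and -0.53 in wild-type 1 to 4. Because it partly follows genotype, the fit with it cannot separate stage from genotype.

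**Figure D4:**
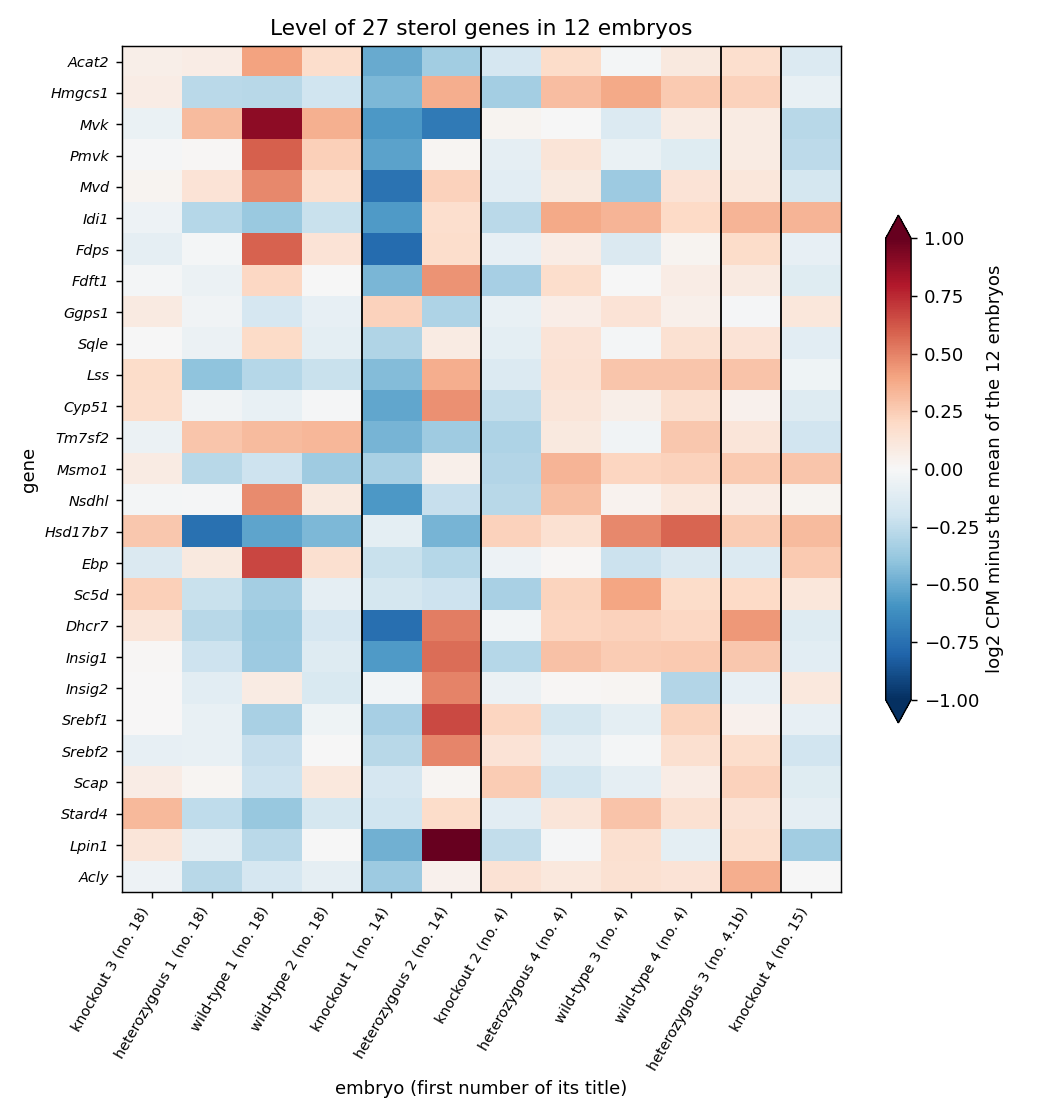
Log2 CPM of the 27 genes in each of 12 embryos minus the gene's mean, in columns ordered by title number and bounded by black lines; blue is below and red above the mean. Knockout 1 is blue in most rows and heterozygous 2, beside it, red in 9 rows where it is the highest embryo.

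Knockout against heterozygous embryos shares the knockout embryos with the comparison above, so the values below are given side by side with it and are not independent of it. None of the 27 genes passed adjustment (0 of 20771 genes, 0%); 24 of 27 had a lower estimate in knockout embryos, against 50.1% of all genes, and the enzyme median was -0.24 against -0.00055 over all genes. Without adjustment, Fdft1, Insig1 and Lpin1 reached p under 0.05, all lower, and 0 were higher; of all genes 7.4% had such a p, 3.79% lower and 3.61% higher. The estimate for Fdft1 was -0.40 ± 0.14 SE, edgeR adjusted p = 0.621. Insig1 (chr5:28276410-28283660, plus strand) stood at 63.7, 77.3, 95.2 and 87.8 CPM in knockout 1 to 4, 81.9, 139, 114 and 116 CPM in heterozygous 1 to 4 and 73.5, 86.5, 112 and 113 CPM in wild-type 1 to 4. Heterozygous 2 was highest and knockout 1 lowest, while heterozygous 1 lay among the knockout embryos (-0.48 ± 0.19 SE, edgeR adjusted p = 0.643). Lpin1 (chr12:16585670-16697020, minus strand) stood at 7.67, 9.03, 11.7 and 8.41 CPM in knockout 1 to 4, 10.1, 22.9, 12.02 and 10.7 CPM in heterozygous 1 to 4 and 8.92, 10.7, 12.01 and 10.04 CPM in wild-type 1 to 4. Heterozygous 2 stands apart from the 11 other embryos, and the log2 fold change of -0.60 ± 0.26 SE, edgeR adjusted p = 0.657 became -0.25 without that library. Pmvk, Mvd and Fdps had knockout values wholly below the heterozygous values, where 1.93% of all genes did (0 members lay wholly above, where 1.51% did), with log2 fold changes of -0.27 ± 0.17 SE, -0.37 ± 0.19 SE and -0.34 ± 0.19 SE. Mvd stood at 20.8, 32.3, 35.3 and 30.6 CPM in knockout 1 to 4, 38.2, 40.6, 37.5 and 37.1 CPM in heterozygous 1 to 4 and 48.3, 38.9, 26.99 and 38.2 CPM in wild-type 1 to 4. Its heterozygous values kept within 4 CPM of each other, and knockout 1 was again apart from the other knockout embryos. Of the rest, Dhcr7 (-0.41 ± 0.22 SE), Hmgcs1 (-0.36 ± 0.20 SE) and Cyp51 (-0.32 ± 0.16 SE) had the lowest estimates, and Hsd17b7 the highest (0.33 ± 0.28 SE). Without knockout 1, 0 members reached p under 0.05 and the enzyme median was -0.13; without heterozygous 2 and knockout 3, the count was 4. Limma voom with sample weights gave 14, all lower, and an enzyme median of -0.41. For these alternative fits too, the share of all genes with such a p was not computed. After adjustment DESeq2 called 74 genes and voom 0, with 0 members in either.

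Between heterozygous and wild-type embryos no member was called. None passed adjustment (0 of 20771 genes, 0%) and 0 reached p under 0.05 before it, where 1.01% of all genes did, 0.732% higher and 0.274% lower; DESeq2 and limma voom also called 0 members. Estimates ran from -0.38 ± 0.25 SE (Mvk) to 0.42 ± 0.26 SE (Lpin1), with 10 of 27 below 0 (51.6% of all genes) and an enzyme median of -0.05. No member's heterozygous values lay wholly below the wild-type values (0.443% of all genes). All 5 genes of the SREBP switch had positive estimates, from 0.05 (Scap) to 0.22 (Insig1), and heterozygous 2 was the highest embryo for 4 of them.

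Within a title number, the knockout embryo was set beside its fellows, with 1 knockout embryo each and thus no test. In number 4, 16 of 19 enzymes were lower in knockout 2 than in the mean of wild-type 3 and 4, by a median log2 difference of -0.30. In number 18, 10 of 19 were lower in knockout 3 than in wild-type 1 and 2, with a median of -0.05. The share of all genes lower in the same knockout embryos was not counted. The genes split between the numbers. Hmgcs1 was -0.66 in number 4 and 0.31 in number 18, Sc5d -0.61 and 0.45, and Insig1 -0.55 and 0.26. Mvk went the other way, 0.06 in number 4 and -0.69 in number 18. Tm7sf2 was -0.42 and -0.38, and Nsdhl -0.35 and -0.31, below 0 in both.

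A comparison of the title numbers themselves was added after the data were seen. It used the 6 heterozygous and wild-type embryos of numbers 18 and 4, with 3 embryos each and genotype in the edgeR model. Each side is a single title number, so its p-values measure the spread between embryos within a number. They cannot tell an effect of the number from any other difference between these sets of embryos. Of the 27 genes, 9 were lower in number 18 after adjustment over 21030 genes and 0 were higher: Hmgcs1, Idi1, Lss, Msmo1, Hsd17b7, Sc5d, Dhcr7, Insig1 and Stard4. The background is large, since 9.15% of all genes were lower and 9.75% higher by the same rule. The number of calls depended on which embryos were used. It was 0 without wild-type 3 or wild-type 4, 6 without wild-type 2 and 11 without wild-type 1 (Mvk among both of the last, higher). The calls over all genes moved as well. They were 56 of 20717 without wild-type 3, 8 of 20813 without wild-type 4, 2729 of 20757 without wild-type 2 and 5938 of 20804 without wild-type 1. Without heterozygous 1 or heterozygous 4, the lone heterozygous embryo is fitted by its own genotype term. Both omissions therefore leave the same contrast, wild-type 1 and 2 against wild-type 3 and 4. All 9 estimates stayed negative with each embryo left out. The median over the members was -0.13, against 0.02 over all genes.

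Hsd17b7 (chr1:169777109-169796757, minus strand) had the largest difference of the members. It stood, from the lowest to the highest embryo, at 17.3, 20.2 and 21.2 CPM in the number 18 embryos and 32.2, 40.6 and 43.4 CPM in the number 4 embryos. The groups lay far apart, by a 1.98-fold lower level in number 18 (log2 fold change -0.99 ± 0.11 SE, adjusted p = 0.00652). Hmgcs1 (chr13:120151887-120169796, plus strand) stood at 406, 409 and 428 CPM in the number 18 embryos and 591, 610.0 and 640.4 CPM in the number 4 embryos (-0.57 ± 0.11 SE, adjusted p = 0.019). Idi1 (chr13:8935642-8942432, plus strand) stood at 69.6, 74.1 and 77.4 CPM in the number 18 embryos and 103, 114 and 117 CPM in the number 4 embryos (-0.60 ± 0.11 SE, adjusted p = 0.0169). Neither gene's groups overlap, and each group spans a narrow range. Insig1, which SREBP raises and whose protein restrains it, stood at 73.5, 81.9 and 86.5 CPM in the number 18 embryos and 112, 113 and 116 CPM in the number 4 embryos (-0.50 ± 0.11 SE, adjusted p = 0.025). Its number 4 embryos lie within 4 CPM of each other. Dhcr7 (chr7:143376827-143402147, plus strand) stood at 52.5, 55.9 and 60.3 CPM in the number 18 embryos and 78.3, 78.8 and 79.7 CPM in the number 4 embryos (-0.50 ± 0.11 SE, adjusted p = 0.0247). Lss had a log2 fold change of -0.54 ± 0.10 SE, adjusted p = 0.0173, Msmo1 -0.55 ± 0.11 SE, adjusted p = 0.019, Sc5d -0.49 ± 0.12 SE, adjusted p = 0.0339 and Stard4 -0.46 ± 0.11 SE, adjusted p = 0.0326.

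The other members were not called. Groups did not overlap in 12 members that were lower in number 18 (22.6% of all genes), the 9 above with Ggps1, Cyp51 and Acly, and in 4 that were higher (23.6% of all genes): Mvk, Mvd, Tm7sf2 and Ebp. Mvk stood at 55.1, 56.6 and 82.2 CPM in the number 18 embryos and 40.2, 44.2 and 46.97 CPM in the number 4 embryos (0.55 ± 0.17 SE, adjusted p = 0.06). Ebp had 0.43 ± 0.18 SE, adjusted p = 0.126, Mvd 0.29 ± 0.17 SE, adjusted p = 0.268 and Tm7sf2 0.19 ± 0.13 SE, adjusted p = 0.333. Estimates thus had both signs within the mevalonate stretch, though those above 0 were not called. Srebf1, Srebf2, Scap and Insig2 had estimates between -0.13 and 0.03, with adjusted p of at least 0.491. Stage markers moved with the title number as well. In these 6 embryos the genes higher earlier summed to 63.3 to 66.1 CPM in number 18 and 174 to 235 CPM in number 4, and the genes higher later to 4074 to 11065 CPM and 1849 to 3879 CPM. Erythroid markers summed to 23177 to 74143 CPM and 16029 to 46542 CPM, which overlap, and macrophage markers to 130.4 to 185 CPM and 65.7 to 74.03 CPM, which do not. Hepatoblast markers summed to 208 to 823 CPM and 44.9 to 203 CPM. Stage and title number cannot be told apart in these embryos.

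**Figure D5:**
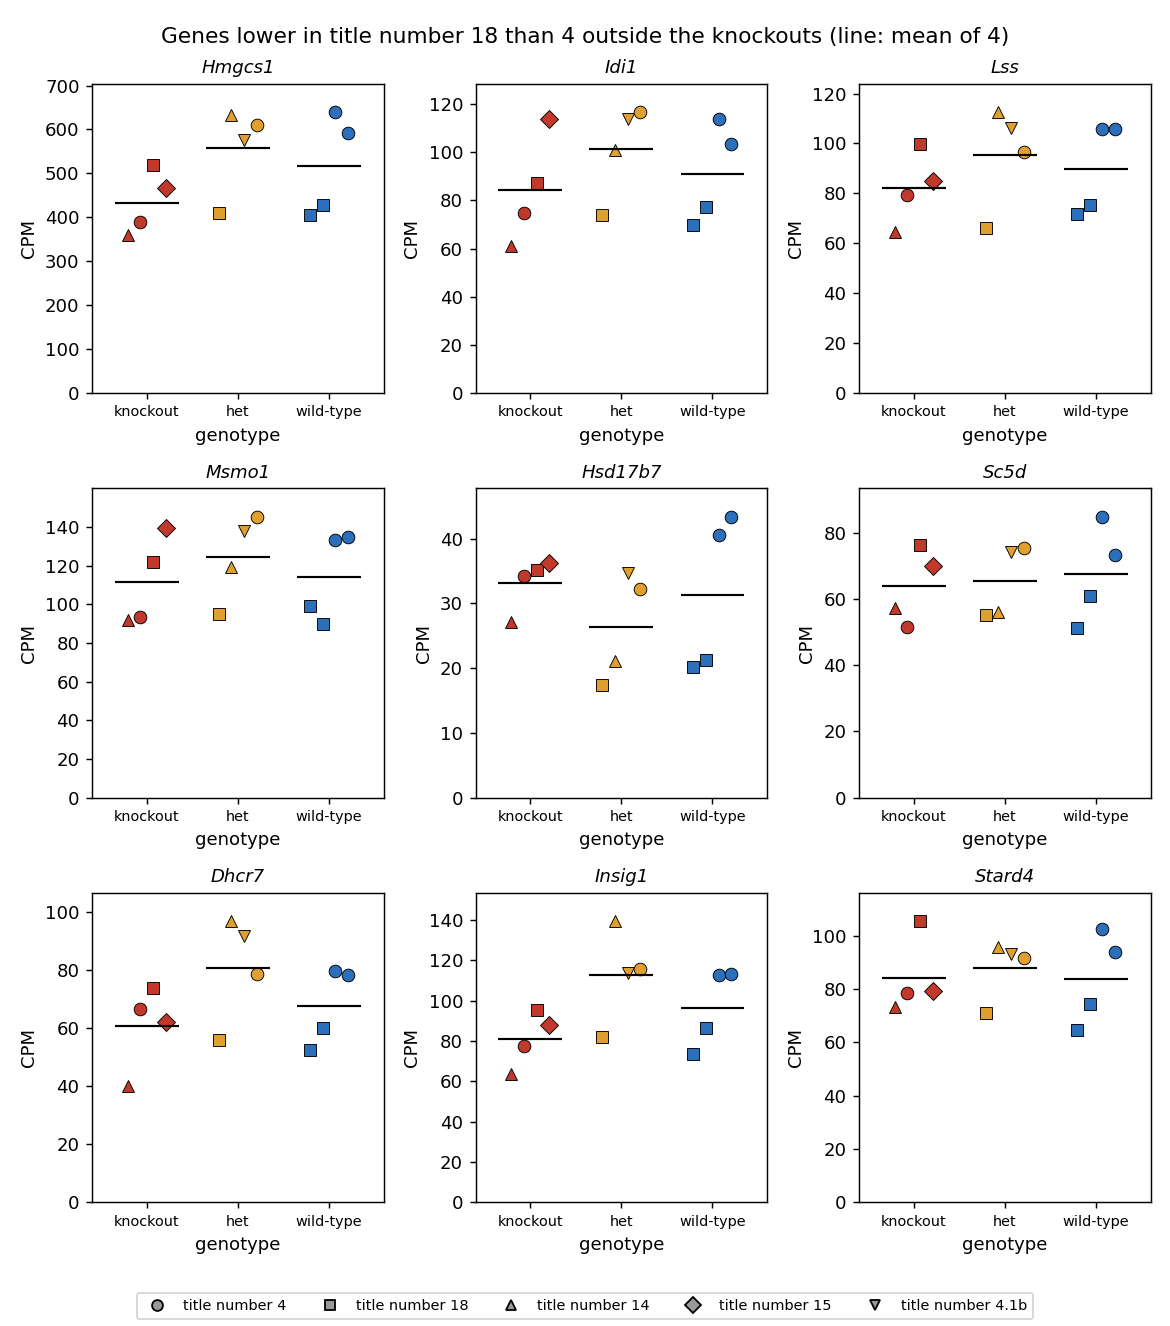
CPM of the 9 genes lower in title number 18 than in number 4 among heterozygous and wild-type embryos, by genotype with a line at the mean of 4; squares are number 18 and circles number 4. Orange and blue squares lie below orange and blue circles in every panel, whereas the red square (knockout 3) lies above the red circle (knockout 2).

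The knockout embryos had the opposite order, with 1 embryo per number. Hmgcs1 was at 518 CPM in knockout 3 (number 18) and 388 CPM in knockout 2 (number 4), Insig1 at 95.2 CPM in knockout 3 (number 18) and 77.3 CPM in knockout 2 (number 4) and Hsd17b7 at 35.1 CPM in knockout 3 (number 18) and 34.2 CPM in knockout 2 (number 4). The difference of the title number effect between knockout and other embryos was tested as an interaction in the 8 embryos of numbers 4 and 18. Each knockout arm is 1 embryo, so the spread in this fit comes from the other genotypes, to which the lone embryos are assumed to be alike in spread. The 9 genes were also chosen by the number 18 against 4 difference that forms part of the interaction, so its count is a description and supports nothing. It was positive with p under 0.05 before adjustment for 10 members (the 9 above and Cyp51), where 10% of all genes were, and 0 members passed adjustment (smallest adjusted p 0.143, Hsd17b7; 28 of 21492 genes passed, 0.13%). For Hmgcs1 the interaction was 0.99 ± 0.22 SE on the log2 scale (edgeR adjusted p = 0.144). With the knockout embryos in the title number comparison, 1 member, Hsd17b7, was lower in number 18 (log2 fold change -0.73, adjusted p = 0.0495), where 3.1% of 21492 genes were, and 0 were higher, where 4.75% were; before adjustment 28.9% of these genes had p under 0.05. Leaving out any 1 wild-type embryo gave 0 called members. Without wild-type 1 to 4 in turn, 1531, 300, 352 and 210 genes were called in all, against 1688 with all 8 embryos. Leaving out knockout 2 or knockout 3 leaves 1 knockout embryo, which its own genotype term fits. Those fits in effect repeat the comparison of the 6 other embryos (log2 fold change of Hsd17b7 -0.98 in both, against -0.99 there). Leaving out a heterozygous embryo likewise leaves 1 of that genotype (Hsd17b7 -0.68).

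Promoter sequences of these genes were read because members moved together by title number, from RefSeq's starts on GRCm38.p6, where 23 of 27 members had an entry of 300 bases. Shown are 180 bases before the start of 3 genes that were lower in number 18 (Hmgcs1 at chr13:119690171-119690350, plus strand, Hsd17b7 at chr1:169969206-169969385, minus strand and Insig1 at chr5:28071232-28071411, plus strand) and of Mvk (chr5:114444089-114444268, plus strand), whose groups lay the other way. Capitals mark 3 motifs searched on both strands: the sterol regulatory element-like TCACNCCAC and its shorter form CACNCCAC, the E-box CACGTG, and CCAAT, the box of NF-Y, a partner factor of SREBP (ATTGG on the opposite strand).
Hmgcs1: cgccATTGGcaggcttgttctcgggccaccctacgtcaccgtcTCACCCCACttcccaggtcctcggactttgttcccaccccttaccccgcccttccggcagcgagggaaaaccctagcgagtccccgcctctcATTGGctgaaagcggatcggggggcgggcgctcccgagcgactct
Hsd17b7: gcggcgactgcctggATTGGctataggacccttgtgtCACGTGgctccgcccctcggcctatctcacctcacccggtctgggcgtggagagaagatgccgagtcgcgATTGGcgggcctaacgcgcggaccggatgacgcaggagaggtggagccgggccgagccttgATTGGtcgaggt
Insig1: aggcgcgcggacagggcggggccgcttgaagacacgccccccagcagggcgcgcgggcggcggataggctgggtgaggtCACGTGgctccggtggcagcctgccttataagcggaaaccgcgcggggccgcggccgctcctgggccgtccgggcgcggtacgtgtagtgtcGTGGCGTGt
Mvk: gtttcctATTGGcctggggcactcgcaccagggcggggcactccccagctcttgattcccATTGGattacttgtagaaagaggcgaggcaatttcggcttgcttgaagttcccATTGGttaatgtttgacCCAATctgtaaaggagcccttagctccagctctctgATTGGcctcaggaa

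The long sterol element was found in Hmgcs1 alone of 23 members, 137 bases before the start, and in 1.44% of 27025 genes with a promoter entry; the shorter form, which it contains, was found in Acat2, Hmgcs1 and Insig1, against 7.12% of genes. The E-box was found in 5 of 23 members (Hsd17b7, Sc5d, Dhcr7, Insig1 and Scap), against 8.09% of genes. CCAAT on either strand was in 20 of 23 members, against 41.1% of genes, and GGGCGG, a box of Sp1, in 20 of 23, against 38.2%. Mvk has 5 CCAAT matches in the window shown and none of the other 2 kinds. Idi1, Lss and Msmo1, which were lower in number 18, likewise had no sterol element or E-box in their entries. Acat2, with the shorter element, and Scap, with an E-box, were not called by title number (0.13 ± 0.13 SE and 0.03 ± 0.13 SE). Whether a motif goes with the direction of a gene was not tested. The letters are a description of these windows and say nothing of whether a factor was bound.

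Of 48 other genes around the pathway, 0 passed adjustment between knockout and wild-type embryos (0 of 20771 genes, 0%), and 2 reached p under 0.05 before it, both lower, where 8.33% of all genes had such a p and 4.08% were lower. Abcg1, a sterol exporter and LXR target, stood at 6.10, 6.78, 6.63 and 5.15 CPM in knockout 1 to 4, 8.81, 9.23, 8.41 and 6.69 CPM in heterozygous 1 to 4 and 10.1, 11.4, 9.19 and 8.01 CPM in wild-type 1 to 4. Every knockout embryo was below every wild-type embryo, with heterozygous 4 among the knockout values (-0.65 ± 0.19 SE, edgeR adjusted p = 0.537). Acss2, which makes acetyl-CoA from acetate, stood at 7.66, 11.3, 16.5 and 7.14 CPM in knockout 1 to 4, 16.8, 16.01, 17.6 and 22.2 CPM in heterozygous 1 to 4 and 21.4, 19.7, 15.7 and 14.6 CPM in wild-type 1 to 4. Knockout 3 lay among the other genotypes and the remaining knockout embryos below them (-0.75 ± 0.25 SE, edgeR adjusted p = 0.537). By list, 1 of 15 fatty acid synthesis genes and 1 of 10 genes for LXR receptors, their targets and sterol handling had p under 0.05. So did 0 of 13 genes of SREBP processing and 0 of 10 of the isoprenoid branches. The medians, in this order, were -0.15, -0.12, 0.01 and 0.13. Fads2, a fatty acid desaturase, had -0.27 ± 0.13 SE, edgeR adjusted p = 0.613. Mbtps2, the protease that frees SREBP in the Golgi, had a positive estimate of 0.45 ± 0.24 SE, edgeR adjusted p = 0.63, and Sp1 0.29 ± 0.22 SE, edgeR adjusted p = 0.709. Soat1, which esterifies cholesterol, had 0.47 ± 0.28 SE, edgeR adjusted p = 0.661. Coq2 and Pdss1, of ubiquinone synthesis, had 0.27 ± 0.13 SE, edgeR adjusted p = 0.614, and 0.32 ± 0.19 SE, edgeR adjusted p = 0.663. Against heterozygous embryos, 4 of the 48 reached p under 0.05, all lower (Acss2, Fads1, Fads2 and Abcg1), where 7.4% of all genes had such a p and 3.79% were lower, with Fads1, named after its value was seen, at -0.41 ± 0.14 SE, edgeR adjusted p = 0.617.

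By title number in the 6 heterozygous and wild-type embryos, genes of these lists were also called, over a background of 9.15% lower and 9.75% higher genes. These 12 calls depend on the embryos as those of the members do. Without wild-type 3 or wild-type 4, 0 remained, where 56 and 8 genes were called in all, and without wild-type 2, 9 remained. The sign was kept with each embryo left out. Of 15 fatty acid synthesis genes, 5 were lower in number 18 and 0 higher: Fasn, the fatty acid synthase (-0.51 ± 0.12 SE, adjusted p = 0.031), the elongases Elovl5 (-0.41 ± 0.11 SE, adjusted p = 0.0383) and Elovl6 (-0.72 ± 0.18 SE, adjusted p = 0.0331), the desaturase Scd1 (-0.64 ± 0.15 SE, adjusted p = 0.0289) and Gpam, which starts glycerolipid synthesis (-0.55 ± 0.14 SE, adjusted p = 0.0345). Of 13 genes of SREBP processing, Mbtps2 (-0.64 ± 0.16 SE, adjusted p = 0.0348) and Sp1 (-0.60 ± 0.13 SE, adjusted p = 0.0249) were lower. The list of 10 genes for LXR receptors, their targets and sterol handling had 3 that were higher. They were Mylip, a ubiquitin ligase for lipoprotein receptors (0.87 ± 0.13 SE, adjusted p = 0.0112), Nr1h2, the LXR beta receptor (0.57 ± 0.12 SE, adjusted p = 0.0234), and Npc2, a lysosomal cholesterol carrier (0.69 ± 0.18 SE, adjusted p = 0.0363). The LXR target Abca1 was not called (-0.12 ± 0.23 SE). Of 10 isoprenoid branch genes, the prenyltransferase subunits Pggt1b (-0.60 ± 0.15 SE, adjusted p = 0.0358) and Rabggtb (-0.71 ± 0.11 SE, adjusted p = 0.0133) were lower. Abcg1 had 0.34 ± 0.14 SE, adjusted p = 0.127 and Acss2 0.15 ± 0.19 SE, adjusted p = 0.589.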

How the data were processed

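Whole-embryo RNA from 12 animals was sequenced after a strand-marking mRNA preparation, per the labels' protocols. What the authors deposited is a single table of estimated counts, 1 row per gene, without normalization. Reads were assigned by featureCounts 2.0.6 to RefSeq genes on GRCm39, per the file headers: reads that fit several places or genes were split, each mate was counted, and strand was ignored, so overlapping genes share reads. The submitters' processing notes also list DRAGEN, with no role stated. Every pair of libraries differed by more than sampling noise. The estimated counts were rounded to whole numbers, filtered with filterByExpr and scaled by TMM. Genotypes were compared with edgeR 4.0.16 (R 4.3.3), by its robust quasi-likelihood test with a mean per genotype over 12 embryos, two-sided, with Benjamini-Hochberg adjustment over 20771 genes and a threshold of 0.05. CPM values use the TMM-scaled totals, and log2 CPM a prior count of 2. P-values measure the spread between these embryos, and those by title number the spread between embryos within a number.

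The members, lists and tests were chosen with earlier results of these data known. All 27 members are named; of the other lists, genes past adjustment and the 2 with the smallest p in knockout against wild-type embryos; of the marker lists, the 2 most abundant. The comparisons of title numbers were added after seeing the data. The edgeR script was tested on simulated counts for knockout against wild-type embryos. After adjustment it recovered 3 of 50 genes changed 1.5-fold, 29 of 50 changed 2-fold and 45 of 50 changed 4-fold. The changed genes were drawn from those above the median level, and genes were simulated independently of each other. In the real data Mfsd12 itself was not called between these genotypes (log2 fold change -2.01 ± 0.33 SE, edgeR adjusted p = 0.385). The largest member difference in that comparison was 1.47-fold (Mvk), so 0 called members does not show that the members were unchanged. DESeq2 1.42.0, limma 3.58.1 voom, other scalings and filters, covariates and the omission of each embryo were alternatives. The promoter table (250 bases before and 50 after each start) is of GRCm38.p6, and no position was carried between builds.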

Additional observations from a re-analysis of the deposited data

Results flagged for a closer look

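In 81 groups of 4 embryos (27 genes in 3 genotypes), 5 held an embryo whose gap to the nearest of the others took up more of the group's range than Dixon's 95% critical value allows; chance alone gives about 1 in 20. Fdps was at 76.4 CPM in knockout 1, and between 122.5 and 123.3 CPM in the other knockout embryos. Among heterozygous embryos, Insig2 was at 30 CPM in the library labelled heterozygous 2, with 19.8 to 21.4 CPM in the others, and Lpin1 at 22.9 CPM there, with 10.1 to 12.02 CPM in the others. Stard4 was at 70.8 CPM in heterozygous 1, with 91.6 to 95.8 CPM in the other heterozygous embryos. Nsdhl was at 75.5 CPM in wild-type 1, against 55.6 to 58.5 CPM in wild-type 2 to 4.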

How the results depend on the processing

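The embryo numbers follow deposition order and were not used as a block. The title number, which joins embryos across genotypes, was used as one and gave 0 called members and enzyme medians of -0.21, -0.27 and 0.01 for knockout against wild-type, knockout against heterozygous and heterozygous against wild-type embryos. Numbers 15 and 4.1b hold 1 embryo each, which the block term fits exactly. Across 24 alternatives, 0 members were called between any 2 genotypes. The smallest adjusted p of a member over them was 0.138 for knockout against wild-type, 0.11 for knockout against heterozygous and 0.956 for heterozygous against wild-type embryos. DESeq2 called 127, 74 and 4 of all genes in these comparisons, none of them members. Before adjustment, limma voom with sample weights counted 15 members with p under 0.05 in knockout against wild-type and 14 in knockout against heterozygous embryos, all lower, where edgeR counted 5 and 3. The share of all genes with such a p was not computed for voom, so its counts have no background. The enzyme median of knockout against wild-type embryos was -0.38 with voom, and -0.31 to -0.13 as each embryo was left out. For knockout against heterozygous it was -0.41 with voom, -0.39 with Xist as a covariate, and -0.29 to -0.13 with embryos left out. For heterozygous against wild-type embryos it was 0.19 with Xist, and -0.07 to 0.01 with embryos left out. Single members changed sign in 38, 27 and 43 of 648 values each, and 17, 20 and 11 of 27 members kept theirs throughout; none of these was called. The count of members called by title number in 8 embryos, 1 as reported, was 0 with upper-quartile scaling and 0 as each wild-type embryo was left out. In the 6 heterozygous and wild-type embryos, the count was 9 as reported and 9 with RLE scaling. It was 10 with upper-quartile scaling, without a count filter or with DESeq2 (Mvk joined, higher). These 3 fits called 3983 of 21030, 5327 of 30698 and 5320 of 21175 genes in all, against 3975 of 21030 as reported. As each wild-type embryo was left out, the count of members was 0 to 11, where 8 to 5938 genes were called in all. Lpin1, the member with the fewest reads, averaged 665 per library.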
